A study of Homo sapiens with 59 samples.

Results

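Trimethylation of lysine 4 of histone H3 (H3K4me3) was followed after knockdown of DPPA2 in NCI-H661 cells, an established line of human lung large cell carcinoma. The 4 libraries described are the H3K4me3 peak lists of the line shDPPA2, taken by their labels from 59 samples of the series. These were 2 libraries from cells given 2 µg/ml doxycycline for 7 days (DOX, replicates 1 and 2) and 2 from cells given water for the same time (H2O, replicates 1 and 2). The line carries a stably integrated, tetracycline-inducible miR30-type hairpin against DPPA2, and was kept as a sorted bulk population and not as a single clone. The series also holds H3K4me3 of the lines shDPPA4 and shDPPA2+4 with the same treatments and replicate numbers, which set the spread and serve as a comparison. No H3K4me3 library of a line with a nontargeting hairpin was analysed here, so knockdown and doxycycline itself cannot be told apart. Mouse chromatin was added to each sample as an external reference, but its reads were not used here. The labels give replicate numbers only, while the paper names its ChIP-seq replicates biological. Whether these were separate cultures is not given by the labels, so the p-values speak of the spread among these libraries.

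H3K4me3 is placed by the COMPASS family of methyltransferase complexes (SET1 and MLL enzymes with subunits such as WDR5) and is found at the promoters of active genes and, beside H3K27me3, at many silent developmental genes. Promoters rich in CG dinucleotides carry it most widely, because readers of unmethylated CG recruit these enzymes. DPPA2 and its partner DPPA4 bind DNA through SAP domains and belong to early embryonic and germ cells. In mouse embryonic stem cells they are known to bind CG-rich promoters and to keep both H3K4me3 and H3K27me3 at developmental genes.

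Fold changes are set beside base composition below, so 6 promoters are shown first. Each is given as the 250 bases before its RefSeq transcription start site (TSS) on GRCh38.p14, read 5′ to 3′ on the strand of the gene. Every CG is in capitals. ZFP30 (chr19:37655466-37655715, minus strand) and RPL10 (chrX:154398127-154398376, plus strand) lie in regions with lower read counts on doxycycline, and WNT4 (chr1:22143098-22143347, minus strand) lies in one with higher counts.
ZFP30: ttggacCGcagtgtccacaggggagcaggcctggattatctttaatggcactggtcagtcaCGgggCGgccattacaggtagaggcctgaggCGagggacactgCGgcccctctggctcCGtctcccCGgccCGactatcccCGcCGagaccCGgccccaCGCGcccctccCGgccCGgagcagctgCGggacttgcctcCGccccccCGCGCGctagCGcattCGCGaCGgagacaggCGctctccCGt
RPL10: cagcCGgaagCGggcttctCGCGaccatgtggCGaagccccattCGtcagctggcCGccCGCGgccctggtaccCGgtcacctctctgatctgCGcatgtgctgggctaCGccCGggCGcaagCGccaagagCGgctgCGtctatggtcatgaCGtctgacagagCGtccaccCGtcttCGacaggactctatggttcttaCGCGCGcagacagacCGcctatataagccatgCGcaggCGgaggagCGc
WNT4: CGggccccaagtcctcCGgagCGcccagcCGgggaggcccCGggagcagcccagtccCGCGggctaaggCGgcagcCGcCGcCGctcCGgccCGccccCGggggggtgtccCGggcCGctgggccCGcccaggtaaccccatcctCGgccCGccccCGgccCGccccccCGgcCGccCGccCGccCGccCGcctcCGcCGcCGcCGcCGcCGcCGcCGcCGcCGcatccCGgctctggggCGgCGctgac
In the line shDPPA2, MAGEA4 (chrX:151912639-151912888, plus strand) and TRPC6 (chr11:101584008-101584257, minus strand) came under H3K4me3 domains on doxycycline only, and TLR6 (chr4:38856818-38857067, minus strand) was under them with water only.
MAGEA4: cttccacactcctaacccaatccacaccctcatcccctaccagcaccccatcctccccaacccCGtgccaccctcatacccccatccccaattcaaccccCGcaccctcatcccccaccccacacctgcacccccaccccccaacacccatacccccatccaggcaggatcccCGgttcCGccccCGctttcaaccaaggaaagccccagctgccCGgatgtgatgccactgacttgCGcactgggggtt
TRPC6: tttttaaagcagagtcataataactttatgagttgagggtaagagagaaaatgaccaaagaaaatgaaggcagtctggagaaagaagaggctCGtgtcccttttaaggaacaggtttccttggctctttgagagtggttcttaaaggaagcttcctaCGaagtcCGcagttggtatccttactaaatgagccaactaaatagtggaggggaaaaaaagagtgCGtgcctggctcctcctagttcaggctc
TLR6: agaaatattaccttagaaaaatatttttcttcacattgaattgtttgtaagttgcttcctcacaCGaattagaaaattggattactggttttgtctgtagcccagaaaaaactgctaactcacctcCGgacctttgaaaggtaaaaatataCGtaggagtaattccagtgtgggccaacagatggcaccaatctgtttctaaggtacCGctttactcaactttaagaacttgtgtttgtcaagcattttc
The stretch of WNT4 held 40 CG, a number reached by 2.16% of 35116 RefSeq promoter sequences, against 26 in ZFP30 and 28 in RPL10. That of PTPN5, another promoter with higher counts, held 26, the same as ZFP30, so the number of CG in this stretch did not part the examples. MAGEA4 held 7, TRPC6 4 and TLR6 4, below the median of 11 over all promoter sequences.

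The number of H3K4me3 domains did not separate the treatments by much. Domains past the filter (a log2 fold over input above 1 and an FDR under 0.05) numbered 31353 and 32024 with water and 30992 and 30856 with doxycycline. The ChIP reads inside them numbered 8394879 and 10986087 with water and 10483542 and 19379794 with doxycycline, so DOX replicate 2 stood apart as the deepest library. Domains within 1500 bp of the TSS of a protein-coding gene, called promoter domains, made up 40.4 to 41.7% of domains and held 76.4 to 77.7% of reads. Those at other annotated TSSs held 11.4 to 11.5% of reads, and distal domains, at neither, 10.8 to 12.2%. Bases covered by domains were shared between any 2 of the 4 libraries with a Jaccard index of 0.742 to 0.784, which was no higher within a treatment (0.780 and 0.766) than across treatments.

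Domains were wider with doxycycline in both replicate pairs, and more so in the second. Their median width was 1800 bp in both water libraries, 1900 bp in DOX replicate 1 and 2200 bp in DOX replicate 2. Promoter domains had a median of 2700 and 2800 bp with water and 2800 and 3200 bp with doxycycline, and distal domains 1000 and 1100 bp against 1100 and 1300 bp. Domains of 4 kb or more numbered 3192 and 3682 with water and 3369 and 5264 with doxycycline. At the other end, domains under 500 bp numbered 2188 and 2213 with water and 1609 and 905 with doxycycline. The covered length was 66.3 and 70.4 Mb with water against 68.5 and 80.1 Mb with doxycycline. An exact sign-flip permutation test over 2 pairs cannot give a two-sided p below 0.5, so these are differences in the same direction in 2 of 2 pairs without a test.

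Width was set beside read number in each pair. In pair 1 the doxycycline library held 1.25-fold the reads of its water library and the median log2 ratio of width over 24096 domains matched 1 to 1 was 0.04, whereas in pair 2 these values were 1.76-fold and 0.17 over 24851 domains. In shDPPA4 the pairs had 1.24- and 1.58-fold the reads and log2 width ratios of 0.07 and 0.10, and in shDPPA2+4 1.05- and 1.499-fold with 0.00 and 0.09. The part of read number in the width was not tested. The pair of shDPPA2+4 with nearly equal reads had a ratio of 0.00, and the pair with the most unequal reads, shDPPA2 replicate 2, had the highest. Between these the orders differed, since the pair of shDPPA4 with 1.24-fold the reads had a higher width ratio than the pair of shDPPA2 with 1.25-fold.

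**Figure D1:**
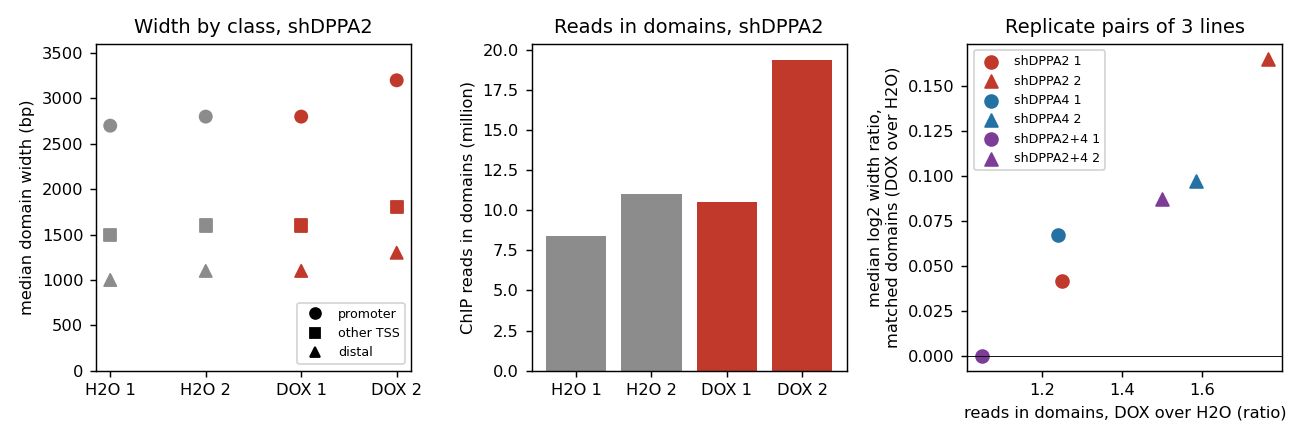
Left, median width of promoter, other TSS and distal H3K4me3 domains (bp) in the 4 shDPPA2 libraries. Middle, ChIP reads in domains of the same libraries. Right, median log2 ratio of width of matched domains (DOX over H2O) against the ratio of reads in domains for 6 replicate pairs of 3 lines; the 2 shDPPA2 pairs lie at 1.25 and 1.76 on the read axis and at 0.04 and 0.17 on the width axis.

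Read density, the reads per kb scaled to the reads in domains of the library, was lower at distal domains in both pairs. At promoters it was lower in pair 2 and hardly moved in pair 1. At matched promoter domains the median log2 ratio of density was 0.01 in pair 1 (11794 domains) and -0.11 in pair 2 (11820 domains). At matched distal domains it was -0.13 in pair 1 (8550 domains) and -0.25 in pair 2 (9092 domains), while their width ratio was 0.06 and 0.24. Matched distal domains of shDPPA4 had density ratios of -0.11 and -0.25. In shDPPA2+4 the median density of all distal domains with doxycycline was 0.94- and 0.83-fold that with water. Classed by their width with water, matched domains of 2 to 4 kb had median log2 width ratios of 0.00 and 0.13, and those of 4 kb or more 0.00 and 0.07. For domains under 500 bp the ratio depended on the matching, with 0.58 and 0.81 for any overlap and 0.00 in both pairs for a reciprocal overlap of at least 0.5. The first pair of shDPPA2+4, with an overall ratio of 0.00, also had 0.58 in this class for any overlap. In distal domains under 500 bp the ratios were 0.81 and 1.00 for any overlap and 0.42 in both pairs for the reciprocal one. Domains found in only 1 library of a pair were small and shallow, with a median width of 600 bp in each water library and 600 and 800 bp with doxycycline, and medians of 14 and 15 reads with water and 17 and 25 with doxycycline. Domains with no partner numbered 3082 and 2140 in the water libraries and 3331 and 3052 in the doxycycline libraries, of which 2557, 1823, 2649 and 2462 were distal.

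Promoter domains reached further out on both sides of the gene start in pair 2, and hardly so in pair 1. In domains that held 1 TSS, the median distance from the TSS to the upstream edge in pair 1 was 1051 bp with water against 1074 bp with doxycycline (9997 domains), and in pair 2 it was 1053 against 1156 bp (10064 domains). The downstream edge lay at 1566 and 1594 bp in pair 1 and at 1647 and 1826 bp in pair 2. The mean change was 28.6 bp upstream and 44.8 bp downstream in pair 1, and 120 and 190 bp in pair 2. The median change was 0 bp on both sides in pair 1, where 44.96% of upstream edges lay further out and 36.4% further in, and 100 bp upstream and 200 bp downstream in pair 2.

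The 5 widest promoter domains differed by at most 1700 bp within a pair. The region over HOXC11 to HOXC5, which encodes a cluster of body-axis transcription factors, had 58500 and 60300 bp under domains with water and 58100 and 61200 bp with doxycycline. NR2F1, a nuclear receptor gene, had 47100 and 47200 bp against 45500 and 48500 bp. SOX2, a gene of stem cells and of the airway and squamous lineages, had 35900 and 36500 bp against 37400 and 37800 bp. Ranked by the smaller of the 2 changes, the largest widening seen in both pairs was at BMP5, a secreted bone morphogenetic protein. It had 7100 and 6500 bp with water against 11300 and 10800 bp with doxycycline. The read count there did not pass the test (log2 fold change 0.45 ± 0.22 (SE), edgeR's quasi-likelihood test with Benjamini-Hochberg adjustment, adjusted p = 0.38). By the same rule the largest narrowing in both pairs was at ZNF567, a zinc finger gene. It had 5900 bp in each water library against 3700 and 4100 bp. Over all 22134 regions tested below, 38.2% were wider with doxycycline in both pairs and 7.08% were narrower in both.

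To ask where the number of reads changed, domains of the 12 H3K4me3 libraries of the 3 lines were merged into 36222 regions, and a test was run on the 22134 that held a domain in each library and a mean of 10 reads or more. Of these, 12302 were promoter regions, 3640 lay at other TSSs and 6192 were distal. H3K4me3 changed at very few of them. No region rose and 6 fell, which is 0.0271% of regions tested (edgeR's quasi-likelihood test with an adjusted p under 0.05, and a log2 fold change of 0.5 or more in size). At an unadjusted p under 0.05, 1333 regions were higher (6.02%) and 1823 lower (8.24%). This split depended on the scaling, with 1925 higher and 1274 lower without TMM scaling, and 177 and 2372 with the called length as an offset. Promoter regions had a median log2 fold change of 0.00, with 876 higher (7.12%) and 1070 lower (8.70%), and distal regions one of -0.03, with 216 higher (3.49%) and 477 lower (7.70%). The scaling centers the changes of all regions, so a change common to them all is not seen. In a bulk population, fewer cells with the mark and less of the mark per cell cannot be told apart.

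Read counts are given as TMM-scaled CPM (counts scaled to a common library size), first for the water libraries and then for the doxycycline libraries. The targeted gene kept H3K4me3 at its promoter. DPPA2 had 69.9 and 70.9 CPM with water and 65.5 and 62.1 CPM with doxycycline (log2 fold change -0.15 ± 0.06, edgeR adjusted p = 0.31). DPPA4, its neighbor and partner gene, had 134 and 128 CPM against 132 and 129 CPM (-0.01 ± 0.05). Since the hairpin acts on the mRNA, neither value checks the knockdown.

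Small differences of H3K4me3 followed base composition. Regions in the lowest decile of GC content (median 34.7% GC) had a median log2 fold change of -0.16, and those in the highest decile (65.0% GC) one of 0.11. The same was seen in each pair, with -0.17 and 0.12 in pair 1 and -0.15 and 0.11 in pair 2. In the lowest decile 337 of 2214 regions were lower and 21 higher at an unadjusted p under 0.05, whereas in the highest decile 12 were lower and 358 higher. Across the 22134 regions, which share libraries and are not replicates, Spearman's rho between fold change and GC content was 0.43, and it was 0.48 across promoter regions. Input density, the input reads per kb of domain, moved in the opposite direction (rho -0.40, and -0.50 at promoters). The abundance of the mark did too. The decile of regions with the most reads had a median of -0.06, with 27.2% of them lower, and the decile with the fewest reads one of 0.10.

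The other lines showed gradients of the same direction. The lowest and highest deciles of GC content had medians of -0.24 and 0.07 in shDPPA4 and -0.12 and 0.08 in shDPPA2+4. With each library's dependence on GC content taken out by a loess offset, an alternative chosen after seeing the data, the lowest and highest deciles both had a median of -0.01 in shDPPA2. What sets the gradients was not tested.

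**Figure D2:**
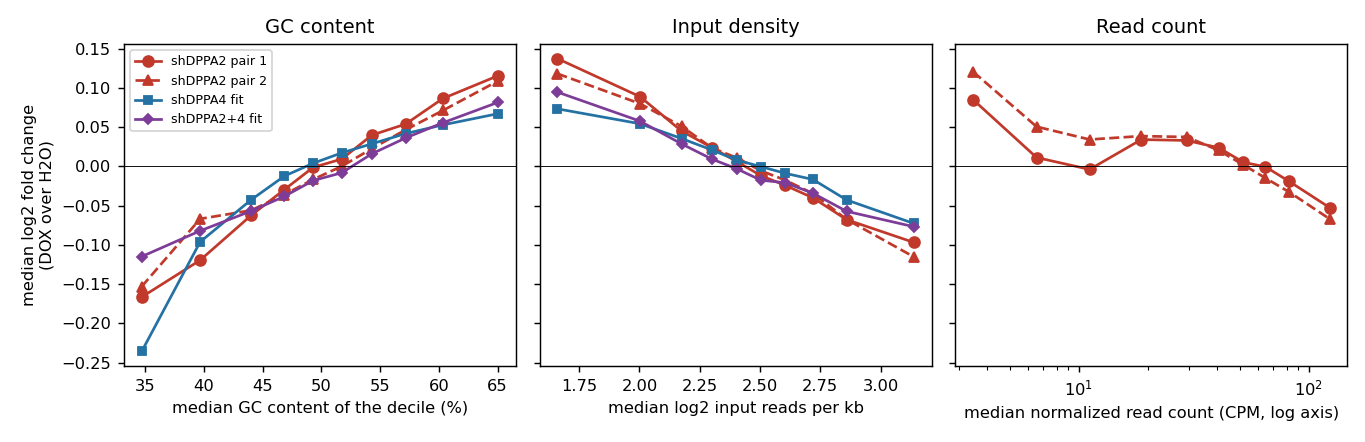
Median log2 fold change (DOX over H2O) of H3K4me3 regions grouped in deciles by GC content (%), by log2 input reads per kb and by normalized read count (CPM, log axis). Circles and triangles in red give the 2 shDPPA2 pairs, and squares and diamonds the fits of shDPPA4 and shDPPA2+4. In shDPPA2 the medians climb from -0.17 and -0.15 to 0.12 and 0.11 with GC content.

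The 6 regions that fell lay outside protein-coding promoters. Inside an intron of DLGAP1, which encodes a scaffold protein of the postsynaptic density, the region chr18:3621601-3629100 had 35.1 and 27.9 CPM against 17.96 and 14.8 CPM. Both doxycycline libraries lay well below both water libraries (log2 fold change -0.93 ± 0.13 (SE), edgeR adjusted p = 0.046). Its domains were also shorter, at 6200 and 5200 bp with water and 3000 and 2900 bp with doxycycline. The greatest difference was at chr6:139977401-139985200, which holds the start of the long noncoding RNA LINC02941 and exons of another on the opposite strand. Its counts were 29.9 and 13.8 CPM against 7.68 and 0.981 CPM (log2 fold change -2.56 ± 0.37, adjusted p = 0.046). The domains there shrank from 6200 and 4000 bp to 2600 and 500 bp, and the water libraries differed from each other by more than they did at DLGAP1.

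Another region, chr14:29417401-29426400, lay in an intron of the noncoding RNA ENSG00000258107 and over exons of ENSG00000286040 on the opposite strand. It had 50.2 and 39.3 CPM against 21.8 and 17.9 CPM (log2 fold change -1.16 ± 0.18, edgeR adjusted p = 0.047). In shDPPA4 the same region had a log2 fold change of -1.17 and in shDPPA2+4 one of -0.40. The remaining 3 regions overlapped no annotated gene. At chr16:74794901-74799500, 20081 bp from the TSS of FA2H (a fatty acid hydroxylase), the counts were 37.3 and 38.5 CPM against 25.3 and 24.9 CPM (log2 fold change -0.60 ± 0.10). At chr20:51930601-51935800, 128080 bp from that of SALL4 (a zinc finger factor of pluripotent cells), they were 37.8 and 32.3 CPM against 23.3 and 20.4 CPM (-0.67 ± 0.11). At chr2:145848901-145852400, 1328782 bp from that of ZEB2, a regulator of mesenchymal transition, they were 12.3 and 6.47 CPM against 3.84 and 2.43 CPM (-1.54 ± 0.25). Each of these 3 had an edgeR adjusted p of 0.047. In each both doxycycline libraries lay below both water libraries, as in 16.3% of all regions. The test drew on the same counts, so this is no separate support.

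The values of the distal regions in the other lines varied. The region near FA2H had log2 fold changes of -0.43 in shDPPA4 and -0.55 in shDPPA2+4, and the region near SALL4 -0.11 and -0.52. The region near ZEB2 had 0.40 and 0.21, and its difference of -1.95 ± 0.36 between shDPPA2 and shDPPA4 did not pass the test (edgeR adjusted p = 0.23). With the GC offset 5 of the 6 remained called, and the region near FA2H came to -0.49. None of the 6 passed the adjusted p when a domain in only 2 of the 4 shDPPA2 libraries was required (28688 regions tested, 5 called higher and 4 lower), where the 6 had adjusted p-values of 0.072 to 0.24 at nearly the same fold changes. None passed with the called length as an offset either (0.23 to 0.998). With the GC offset 1 region was called higher, chr12:84472301-84475100, 437699 bp from the TSS of SLC6A15 (an amino acid transporter). It had 1.34 and 1.29 CPM with water and 4.03 and 3.97 CPM with doxycycline, and domains of 400 bp in each water library against 1500 and 1600 bp. Its log2 fold change was 1.60 ± 0.30 without the GC offset (edgeR adjusted p = 0.088) and 1.75 with it (adjusted p = 0.028). The fold changes without the offset were -0.67 in shDPPA4 and 0.77 in shDPPA2+4.

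**Figure D3:**
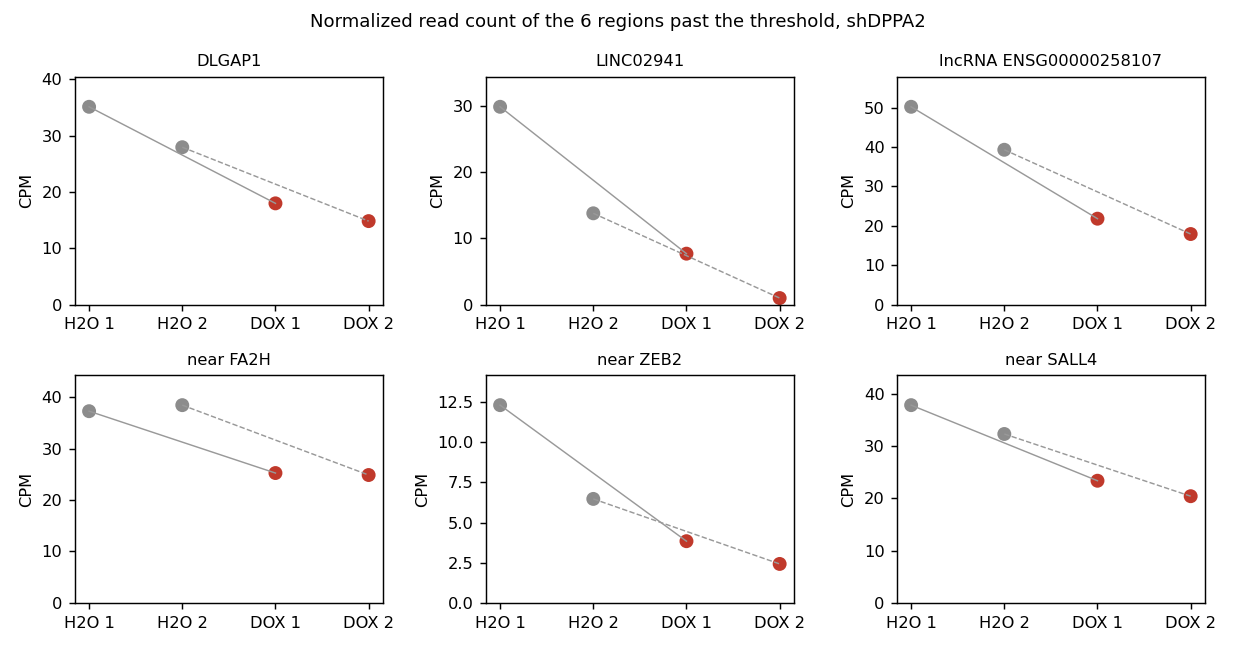
Normalized read count (CPM) of the 6 regions past the threshold in each shDPPA2 library, with lines joining replicate pairs (solid, pair 1; dashed, pair 2). In each panel both doxycycline libraries lie below both water libraries, as in 16.3% of all regions tested.

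A further 3 regions passed the adjusted p but changed by less than the fold threshold. The promoter region of ZFP30, a KRAB zinc finger gene, had 324 and 260 CPM with water and 255 and 202 CPM with doxycycline (log2 fold change -0.35 ± 0.06, edgeR adjusted p = 0.047). That of ZNF571 and ZNF540, zinc finger genes with a shared start, had 162 and 146.6 CPM against 135 and 109 CPM (-0.35 ± 0.06, adjusted p = 0.047). Within VMP1, an autophagy gene whose 3′ part holds the microRNA gene MIR21, the region chr17:59836601-59844000 had 136 and 144 CPM against 97.0 and 104 CPM (-0.48 ± 0.08, adjusted p = 0.047). In all 3 both doxycycline libraries lay below both water libraries, against 16.3% of all regions. The fold changes in the other lines were also below 0 (-0.36 to -0.21). ZFP30 and ZNF571 lost the call with the GC offset (adjusted p = 0.051 each), and all 3 lost it with an offset on GC content and input density (0.065 to 0.20).

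No promoter region was called in either direction, so the promoters with the smallest p are given as values. Among those with lower counts, HSPA5, the chaperone BiP of the endoplasmic reticulum, had 227 and 200 CPM against 180 and 161 CPM (log2 fold change -0.32 ± 0.06, edgeR adjusted p = 0.064). ATP5MC1, a subunit of the mitochondrial ATP synthase, had 81.2 and 71.1 CPM against 63.7 and 59.9 CPM (-0.29 ± 0.05, adjusted p = 0.082). With the GC offset both passed the adjusted p (0.042 each), with fold changes still below the threshold. With GC content and input density as the offset they had adjusted p-values of 0.075 and 0.084, and 0 of 12302 promoter regions passed. HDAC9, a histone deacetylase gene with domains of 31400 to 33800 bp in its region, had 355 and 359 CPM against 308 and 297 CPM (-0.24 ± 0.05), and -0.09 with the GC offset.

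Among those with higher counts, BACE2, a protease gene, had 7.43 and 8.51 CPM with water and 13.4 and 14.2 CPM with doxycycline (log2 fold change 0.79 ± 0.17, edgeR adjusted p = 0.13). PTPN5, a neuronal phosphatase, had 12.9 and 17.7 CPM against 20.7 and 25.1 CPM (0.58 ± 0.12, adjusted p = 0.13). WNT4, whose CG-rich start is shown above, had 32.7 and 39.5 CPM against 44.3 and 48.4 CPM (0.35 ± 0.07, adjusted p = 0.12). Its region was 68.1% GC, and the fold change was 0.22 with the GC offset. The 10 promoter regions of smallest p in this direction had adjusted p-values of 0.096 to 0.14.

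Promoters of cytosolic ribosomal protein genes had fold changes below 0 in 50 of 52 regions, against 5940 of all 12302 promoter regions. All of the 52 changes were small. All 52 listed genes were marked in every library and tested, and 25 promoter regions were lower and 0 higher at an unadjusted p under 0.05, against 8.70 and 7.12% of all promoter regions. None passed the adjusted p, of which the smallest was 0.14 (edgeR). Their median log2 fold change was -0.12, with a range of -0.28 to 0.03. RPL37 had 172 and 165 CPM with water and 152 and 134 CPM with doxycycline (-0.24 ± 0.05). RPL10 had 93.1 and 90.0 CPM against 80.4 and 76.7 CPM (-0.22 ± 0.05), and RPS16 261 and 226 CPM against 227 and 176 CPM (-0.28 ± 0.07). In RPL37 and RPL10 the treatments were apart, and in RPS16 they overlapped. RPS16 also lies in the stretch of chromosome 19 described below. With an offset on GC content and input density the log2 fold changes were -0.08 for RPL37, -0.21 for RPL10 and -0.11 for RPS16. In 33 of the 52 both doxycycline libraries lay below both water libraries, against 14.9% of all promoter regions. RPL22 was the highest, with 59.8 and 59.2 CPM against 63.0 and 59.1 CPM (0.03 ± 0.07), followed by RPS20 (0.02 ± 0.06).

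These regions were also rich in reads and moderate in GC content. Of the 52, 32 belonged to the top 2 deciles of read count, and their median GC content was 48.3% against 52.7% for all promoter regions. The 3990 promoter regions of those deciles had a median of -0.04, with 757 lower and 94 higher. With the GC offset the ribosomal median was -0.13 with 28 lower and 0 higher, against 10.3 and 3.5% of all promoter regions, and with GC content and input density together -0.11 with 23 lower and 0 higher, against 7.15 and 3.23%. The part of read abundance was not tested. In shDPPA4 the median was -0.08 with 10 lower (3.31% of all promoter regions in that line), and in shDPPA2+4 -0.13 with 23 lower (6.1%). The difference from shDPPA4 and that from shDPPA2+4 had an unadjusted p under 0.05 in 1 region each.

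Lower counts were also concentrated on 1 stretch of chromosome 19, which was chosen after its values were seen. Between 36 and 40 Mb, a stretch that includes clustered KRAB zinc finger genes, 53 of 87 regions were lower and 3 higher at an unadjusted p under 0.05, against 8.24 and 6.02% of all regions. The median log2 fold change was -0.16 (-0.10 in pair 1 and -0.19 in pair 2). The median count of these regions was 127 and 112 CPM with water and 114 and 94.4 CPM with doxycycline. In 17 of the 87 both doxycycline libraries lay below both water libraries, against 16.3% of all regions. Of 26 zinc finger promoters in the stretch 22 were lower (median -0.20), and of 38 promoter regions without such a gene 26 were lower (median -0.16). Zinc finger promoters elsewhere on the chromosome had a median of -0.04, with 17 of 191 lower.

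The stretch also stood apart in the input. Input density was 1.51-fold that of all regions from 36 to 38 Mb and 2.77-fold from 38 to 40 Mb. It differed little between treatments, with log2 ratios of -0.03 to 0.02. The labels list inputs of this line for replicate 2 only, so the spread between input replicates is not shown. The GC offset left the median at -0.17 with 58 regions lower (8.27% of all regions), whereas an offset on GC content and input density brought it to -0.05 with 15 lower (6.08% of all regions). With this second offset 9 of the 26 zinc finger promoters and 4 of the 38 other promoter regions were lower, against 7.15% of all promoter regions. In shDPPA4 and shDPPA2+4 the medians were -0.09 and -0.10. The cause was not tested.

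Signaling genes of the Wnt pathway had small fold changes, of which 12 of 51 were below 0, against 5940 of all 12302 promoter regions. Of 51 promoter regions of ligands, receptors and regulators, 7 were higher and 2 lower at an unadjusted p under 0.05 (7.12 and 8.70% of all promoter regions), none past the adjusted p (smallest 0.12), with a median log2 fold change of 0.09. Among the ligands, WNT3A had 21.3 and 26.4 CPM with water and 29.9 and 34.1 CPM with doxycycline (0.42 ± 0.11), and WNT6 had 21.1 and 28.2 CPM against 28.0 and 34.9 CPM (0.35 ± 0.09). The lowest was APC, a scaffold of the complex that degrades β-catenin, with 48.5 and 50.6 CPM against 44.1 and 45.2 CPM (-0.15 ± 0.07). The list was rich in GC (median 59.5%). With the GC offset its median was 0.03, with 5 higher and 3 lower, against 3.5 and 10.3% of all promoter regions. With GC content and input density it was 0.01, with 5 higher and 1 lower, against 3.23 and 7.15%.

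No listed gene of the mark itself or of the developmental regulators passed the adjusted p, and their counts at an unadjusted p depended on the GC offset. Of 26 promoter regions of H3K4 methyltransferases and COMPASS subunits 2 were higher and 5 lower (median -0.01), and 1 and 8 with the GC offset. WDR5, a core subunit, had 56.7 and 62.6 CPM against 62.7 and 73.6 CPM (0.20 ± 0.06). A minor region of ASH1L, another methyltransferase gene, had 8.41 and 8.51 CPM against 4.51 and 5.73 CPM (-0.70 ± 0.22, edgeR adjusted p = 0.21). Of 12 regions of H3K4 demethylases 0 were higher or lower at an unadjusted p under 0.05 (median 0.00). Polycomb subunits had 1 higher and 2 lower of 36 (median 0.02), and 1 and 6 with the offset. HOX genes had 0 higher and 1 lower of 25 (median -0.05), and 0 and 7 with the offset (median -0.09). Of their fold changes without the offset 21 were below 0, against 5940 of all 12302 promoter regions. Developmental transcription factors, a list rich in GC (median 59.4%), had 3 higher and 12 lower of 115 (median -0.03), against 7.12 and 8.70% of all promoter regions. These became 1 and 32 with the GC offset (median -0.10), against 3.5 and 10.3%, and with GC content and input density 1 and 29 (median -0.08), against 3.23 and 7.15%. What sets the difference between the fits was not tested.

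Other housekeeping lists had medians nearer to 0 than the ribosome. Of 50 regions of the mitochondrial ribosome and respiratory chain 12 were lower and 1 higher (median -0.02), of 39 of DNA replication 7 and 0 (median -0.03), and of 40 of the ATF4 and mitochondrial stress response 7 and 3 (median -0.05), against 8.70% of all promoter regions lower and 7.12% higher. With GC content and input density as the offset the numbers lower were 2, 4 and 9, against 7.15%. MRPS10, a mitochondrial ribosomal protein, had 47.3 and 45.4 CPM against 41.9 and 36.5 CPM (-0.25 ± 0.07). FEN1, a flap endonuclease of replication, had 100 and 94.1 CPM against 86.5 and 81.9 CPM (-0.21 ± 0.07). Interferon and antigen presentation genes had 2 higher and 2 lower of 25 (median 0.06). None of these passed the adjusted p.

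**Figure D4:**
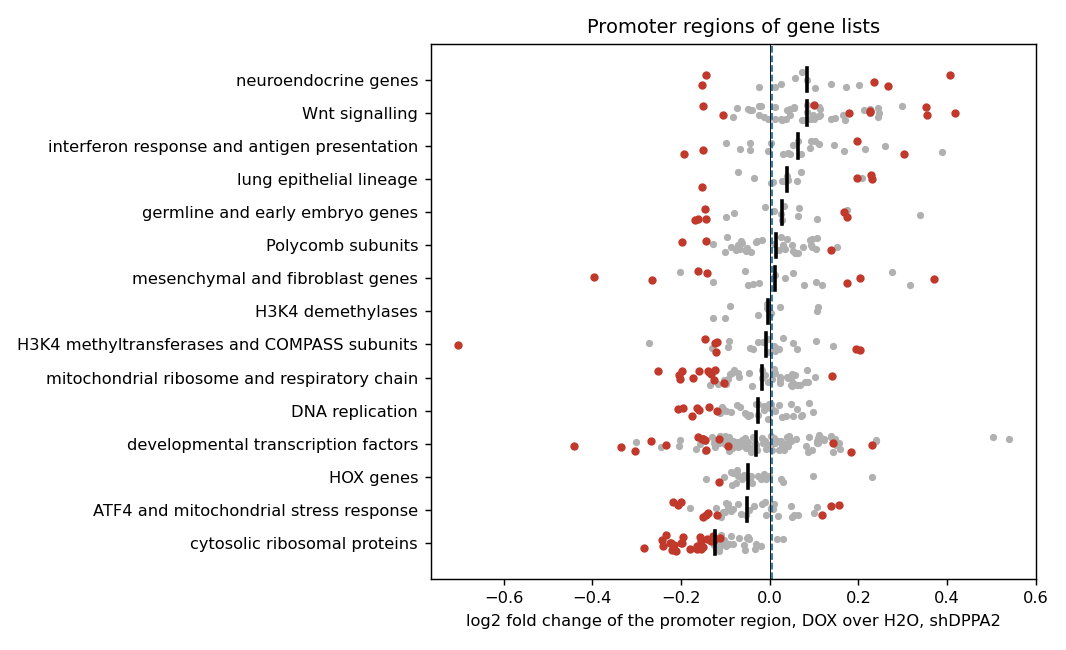
Log2 fold change (DOX over H2O) in shDPPA2 of each promoter region of the gene lists with at least 10 regions. Red points have an unadjusted p under 0.05, black bars are list medians and the dashed line is the median of all promoter regions. Points of the cytosolic ribosomal proteins lie between -0.28 and 0.03, with a median of -0.12.

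Promoters of blood and of other silent tissues were almost free of the mark, whereas many of other lineages carried it. Of 24 blood cell genes 2 were marked in both water libraries, and of 38 genes of other silent tissues 3, with PTPRC, CD3E, HBB and ALB at 0 bp in each library. Of 34 lung epithelial genes 15 were marked, of 28 mesenchymal genes 21, of 21 neuroendocrine genes 18 and of 48 germline and early embryo genes 18. NKX2-1, the lung lineage factor, lay in a domain region of 909 and 938 CPM with water and 846 and 815 CPM with doxycycline (-0.15 ± 0.04), whereas the surfactant genes SFTPB and SFTPC had 0 bp under domains. FOXA1, a pioneer factor, had 31.7 and 37.5 CPM against 38.2 and 43.1 CPM (0.23 ± 0.08). The neuroendocrine gene CHGA had 11.6 and 15.3 CPM against 15.5 and 20.2 CPM (0.41 ± 0.14), in a list with 3 regions higher and 2 lower of 15. Among 18 tested regions of germline and early embryo genes 2 were higher and 4 lower. With the GC offset these numbers were 0 and 2, and in the neuroendocrine list 3 and 1. Of all promoter regions 7.12% were higher and 8.70% lower at an unadjusted p under 0.05, and 3.5 and 10.3% with the GC offset. SALL4 had 374 and 355 CPM against 342 and 308 CPM (-0.17 ± 0.04). Mesenchymal genes had 3 higher and 4 lower of 21, and 1 and 2 with the GC offset. They ranged from COL5A1 with 21.1 and 37.0 CPM against 30.3 and 44.9 CPM (0.37 ± 0.09) to FAP with 14.6 and 11.3 CPM against 10.2 and 9.44 CPM (-0.40 ± 0.17). None of these passed the adjusted p.

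Fold changes of H3K4me3 were also set beside the Polycomb marks of the water libraries. Where H3K27me3, the mark of Polycomb repressive complex 2, was present in both water libraries of the line, 1605 promoter regions had a median log2 fold change of 0.11, with 205 higher and 18 lower at an unadjusted p under 0.05. Where it was present in neither, 10068 regions had a median of -0.01, with 584 higher and 1037 lower. Their median GC content was 58.7 and 51.5%. With the GC offset the medians were 0.04 (99 higher and 84 lower) and -0.02 (284 higher and 1164 lower). With GC content and input density as the offset these classes had medians of 0.03 and -0.02. Of all promoter regions 7.12% were higher and 8.70% lower at an unadjusted p under 0.05, and 3.5 and 10.3% with the GC offset. H2AK119ub, the mark of Polycomb repressive complex 1, gave 0.04 where present in both water libraries (7320 regions, 750 higher and 336 lower) and -0.05 where present in neither (2753 regions, 58 higher and 455 lower). These medians became -0.01 with the GC offset (298 higher and 708 lower) and -0.03 (69 higher and 325 lower). Both classes then had more regions lower than higher, as all promoter regions did with this offset. The share lower was 9.67% where H2AK119ub was present in both water libraries and 11.8% where present in neither. The classes in shDPPA2+4 had medians of 0.09 and -0.01 for H3K27me3 and 0.03 and -0.05 for H2AK119ub. In shDPPA4 they had 0.06 and 0.005 for H3K27me3 and 0.03 and -0.02 for H2AK119ub.

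Few promoters lost or gained the mark outright. Of 20033 protein-coding promoters, taken as the TSS with 1500 bp before and after it, 13963 had at least 300 bp under domains in both water libraries and 14055 in both doxycycline libraries. Per library 14003 and 14138 were marked with water and 14084 and 14227 with doxycycline. The mark was lost at 5 promoters, 0.0358% of those marked in both water libraries, and gained at 20, 0.342% of those marked in neither. In shDPPA4 these numbers were 3 and 40 and in shDPPA2+4 6 and 24. These are counts of domains present or absent, given with no test.

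Most gained promoters had shallow domains. MAGEA4, a cancer-testis antigen gene of the X chromosome, had 0 bp in both water libraries and 1100 and 1400 bp with doxycycline, from domains of 28 and 51 reads. In the other lines it had 700 bp in H2O replicate 2 of shDPPA4, and 1000 bp in H2O replicate 1 and 600 bp in DOX replicate 2 of shDPPA2+4. TRPC6, a calcium channel gene, had 700 and 1400 bp with doxycycline from 26 and 45 reads, and CFTR, the chloride channel of cystic fibrosis, 500 and 1100 bp from 16 and 38 reads. Both had none with water in this line, and each had 600 bp in H2O replicate 2 of shDPPA2+4. CPNE4, a copine gene, had 700 and 1200 bp with doxycycline and none in the other 10 libraries. CHD9NB, LCN12, MMP9 and TYMP were the exceptions in depth, with a domain reaching into the window in each of the 4 libraries. CHD9NB had 297 and 97 bp with water and 1097 bp in each doxycycline library (290 to 720 reads), and LCN12, a lipocalin gene, 228 bp in each water library against 728 and 528 bp (340 to 818 reads). MMP9, a matrix metalloproteinase gene, had 108 and 208 bp against 408 and 508 bp (97 to 833 reads), and TYMP, the thymidine phosphorylase gene, 12 and 212 bp against 312 and 512 bp (97 to 267 reads). Cancer-testis antigens of the X chromosome as a group were marked at 2 of 41 promoters with water and at 3 with doxycycline.

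The lost promoters were as shallow, except PDIA2. TRIM69, a ubiquitin ligase gene, had 800 and 1000 bp with water, from 38 and 43 reads, and 0 bp with doxycycline, but it was marked in all 4 libraries of shDPPA4. TLR6, a receptor for bacterial lipopeptides, had 800 and 600 bp with water from 22 and 14 reads, and OLIG3, a neural transcription factor, 794 and 594 bp from 17 and 21 reads. In shDPPA4 TLR6 had 500 and 200 bp with water and 900 and 600 bp with doxycycline. In shDPPA2+4 it had 1200 and 700 bp with water and 0 bp with doxycycline. FOXD4L4, which has near-identical copies, had 300 and 600 bp against 0 and 200 bp. PDIA2, a pancreatic disulfide isomerase, had 437 and 537 bp against 237 and 137 bp, at the edge of a domain with 216 to 622 reads. Windows under domains over their whole length were far more common than losses, at 2799 and 3097 promoters with water and 2917 and 4207 with doxycycline.

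**Figure D5:**
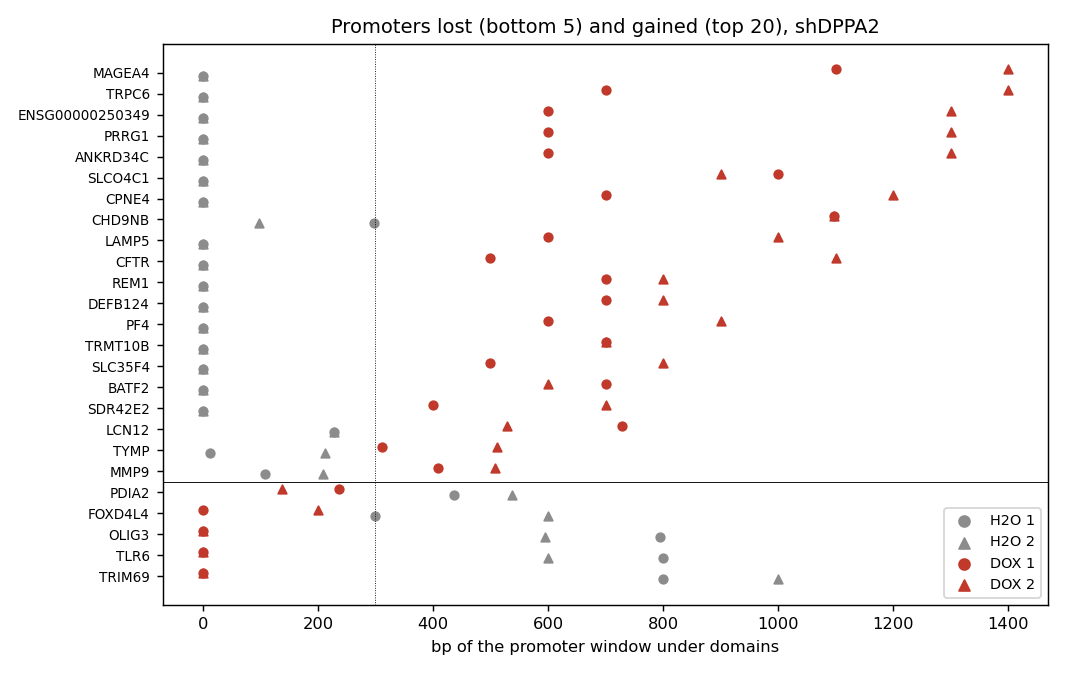
Base pairs of the promoter window under H3K4me3 domains in the 4 shDPPA2 libraries at promoters lost (bottom 5) and gained (top 20). The dotted line marks the minimum of 300 bp. At 16 of the 20 gained promoters both water libraries lie at 0 bp.

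Between lines, the change in shDPPA2 could hardly be told from that in the other lines. Of 22134 regions, 2 differed from shDPPA4 (0.00904%) and 0 from shDPPA2+4 (edgeR's quasi-likelihood test, adjusted p under 0.05 and a log2 difference of at least 0.5). At an unadjusted p under 0.05, 258 regions were higher and 245 lower in shDPPA2 than in shDPPA4, and 227 higher and 201 lower than in shDPPA2+4. Both called regions lay within genes and were nearly level in shDPPA2. In MAP4K3, a kinase gene, they had 10.6 and 8.97 CPM against 10.2 and 8.15 CPM, and in EEF1G, a translation elongation factor gene, 12.1 and 10.7 CPM against 10.47 and 9.08 CPM.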

How the data were processed

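H3K4me3 was profiled by ChIP-Rx-seq in the lines shDPPA2, shDPPA4 and shDPPA2+4 (12 libraries). According to the submitters' processing notes, the tools included Trim Galore 0.6.6, BWA 0.7.13, SAMtools 1.9, Picard 2.6.0, deepTools 3.5.0 and the build hg38. For domain calling the authors ran EPIC2 per library, each with an input. The deposited tables give raw read counts of ChIP and input per domain, and the other columns deposited by the authors hold the log2 fold over input, a p-value, its FDR and a score, which was not used. The filter kept domains whose log2 fold exceeded 1 and whose FDR was below 0.05. The exclusion of blacklisted regions was not applied.

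Promoters were those of Ensembl canonical transcripts in GENCODE 44. Domains were merged over the 12 libraries, and a library's value was the summed ChIP count of its own domains in a region, so a shorter domain lowers it. Counts were fitted with edgeR 4.0.16 in R 4.3.3 (TMM scaling, quasi-likelihood, Benjamini-Hochberg adjustment), with line and treatment as groups and the replicate number as a block. Libraries that share a replicate number deviated together from their group means in all 15 pairs of groups (correlation 0.329 to 0.508), so the numbers were taken to pair the samples. In simulated data for the contrast of shDPPA2 with 22134 regions, 49 of 50 regions with a log2 change of -2, 41 of 50 at -1, 41 of 50 at 1 and 50 of 50 at 2 were recovered, with 12 false calls. Alternatives included DESeq2 1.42.0. Offsets on GC content and on GC content with input density (loess, span 0.3) and the stretch of chromosome 19 were chosen after seeing the data. Tables were handled with Python 3.11.15, pandas 2.3.3 and numpy 2.4.6, and plots were drawn with matplotlib 3.10.9.

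Regions named were those past the adjusted p, the 10 promoter regions of smallest p in each direction (some shown), promoters lost or gained most, the widest and most altered domains, DPPA2, DPPA4 and members of gene lists, of which some beyond the highest and lowest were chosen after their values were seen. The members and lists were chosen with earlier results of these data known.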

Additional observations from a re-analysis of the deposited data

Results flagged for a closer look

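At 2 regions the change of H3K4me3 in shDPPA2 differed from that in shDPPA4 by a test of the difference itself (edgeR's quasi-likelihood test with Benjamini-Hochberg adjustment). Inside MAP4K3 the difference of log2 fold changes was 2.81 ± 0.32 (SE, adjusted p = 0.0062), from -0.10 in shDPPA2 and -2.91 in shDPPA4. Inside EEF1G it was 2.43 ± 0.35 (adjusted p = 0.045), from -0.22 in shDPPA2 and -2.66 in shDPPA4. In shDPPA2+4 these regions had -0.51 and -0.33. The distal region 1328782 bp from the TSS of ZEB2 was lower in both pairs of shDPPA2 and had positive fold changes in both other lines, and its difference from shDPPA4 of -1.95 ± 0.36 did not pass the test (adjusted p = 0.23).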

How the results depend on the processing

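The 6 called regions were at the limit of these 4 libraries. The number called was 0 without TMM scaling, 0 with DESeq2, 39 with edgeR's likelihood ratio test (10 higher and 29 lower), 3 with the called length as an offset, none of them among the 6, and 1 with all deposited domains. It was 9 (5 higher and 4 lower, none of the 6) with a domain in at least 2 of the 4 libraries, 6 (2 higher and 4 lower) with a log2 fold over input above 2, 6 (1 higher and 5 lower) with the GC offset and 5 (1 higher and 4 lower) with the offset on GC content and input. It was 218 (79 higher and 139 lower) with the 4 shDPPA2 libraries alone and their block, a fit with little left to estimate the spread, and 0 to 1 when 1 library was left out. Without the replicate block it was 0, with 261 regions higher and 420 lower at an unadjusted p under 0.05 against 1333 and 1823 with the pairing. The called length as an offset moved the median of all regions to -0.10, and DLGAP1 then had a log2 fold change of 0.0015, the region near SALL4 -0.04, ENSG00000258107 -0.08, and the other 3 -0.73 to -0.52, so these lower counts went in part or in full with shorter domains. Differences from shDPPA4 were called at 4 regions in place of 2 with either offset on GC content.

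Of 52 ribosomal protein promoters, the 25 lower at an unadjusted p under 0.05 became 14 with DESeq2, 15 without the replicate block, 8 with the length offset and 14 to 22 when 1 library was left out. Of 87 regions at 36 to 40 Mb of chromosome 19, the 53 lower became 6 without the replicate block, 28 with the length offset, 15 with the offset on GC content and input, and 22 to 59 when 1 library was left out. These counts are to be read against all 22134 regions, of which 1823 were lower in the main fit. The number lower was 808 with DESeq2, 420 without the replicate block and 2372 with the length offset. With the offset on GC content and input it was 1346. The length offset gave medians of -0.17 for the ribosomal promoters and -0.21 for the stretch, against -0.10 for all regions. The difference of 0.27 between the highest and lowest deciles of GC content was -0.0022 with the GC offset and -0.00018 with the offset on GC content and input, which remove it by construction, and 0.26 to 0.28 within 1 pair.

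Promoters lost, 5 in all, were 2 with at least 1000 bp required, 3 with all deposited domains and 30 with a log2 fold over input above 2. Promoters gained, 20 in all, were 43 with at least 1000 bp and 42 with a fold above 2. Within a single pair 33 to 65 were lost and 122 to 146 gained, since fewer libraries had to concur. The log2 ratio of the median density of distal domains, -0.26, was -0.14 with a fold above 2 and -0.33 to -0.18 within 1 pair. With 2 libraries a group few changes can be called.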
